A study of Mus musculus with 4 samples.

Results

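RNA 5′ ends that lie in repeats were compared between the mouse 2-cell embryo and the blastocyst. Both are single samples of whole embryos from F1 (C57BL/6J X CBA/H) crosses, with no treatment named, and the labels give their ages as 48 h and 92 h. The samples were chosen by stage, and are 2 of the 4 samples of the series. Total RNA was profiled by nanoCAGE, a method for small amounts of RNA in which capped 5′ ends are selected and sequenced. The 2-cell embryo was read in runs 1 and 2 and the blastocyst in runs 1.1, 1.2 and 2, which makes 5 of the 11 runs of the series. The labels do not call the runs separate samples and do not say how many embryos were pooled. The column names number them, with 1.1 and 1.2 nested under 1, but nothing states what the numbers mark. They were therefore treated as repeat runs of 1 sample per stage, the comparison has no replicates and no test or error between samples.

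Repeats with a copy-and-paste life cycle fall into LINE, SINE and LTR elements. LINE elements such as L1 carry the machinery for their own copying, and SINE elements such as B1, B2 and B4 are short and borrow it. LTR elements descend from retroviruses and carry their promoter in the terminal repeat. They comprise ERVL, the family of MERVL, whose transcription is a known mark of the mouse 2-cell stage. They also comprise MaLR, the family of the MT and ORR1 elements of oocytes and early embryos, and ERVK, the family of the IAP and ETn elements. L1 elements are known to be transcribed through preimplantation development.

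Counts were deposited for 47 repeat families, of which 34 are LINE, SINE, LTR or DNA transposon families. The 2-cell runs held 232146 and 245473 counts. The blastocyst runs were shallower, with 41528, 36922 and 93980 counts. Transposon families held 91.6% and 82.2% of 2-cell runs 1 and 2, against 80.2%, 70.2% and 86.4% of blastocyst runs 1.1, 1.2 and 2. A share below is a family's percent of all counts of a run, and a stage mean weights the runs equally. A difference was called where the stage means lay at least 2-fold apart with no overlap between the runs of both stages. The stages are described in whole embryos, so more or fewer cells with an RNA and more or less of it per cell cannot be told apart. Marker genes of either stage were not analysed here, since the tables hold repeats only.

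LTR elements took a smaller share of the counts in the blastocyst. Their share was 37.0% and 44.9% in the 2-cell runs, against 22.1%, 19.05% and 31.0% in blastocyst runs 1.1, 1.2 and 2. All 3 blastocyst runs lay below both 2-cell runs, and the stage mean went from 41.0% to 24.0%, a 1.70-fold difference that stayed under the 2-fold rule. LINE elements took 32.6% and 16.8% of the 2-cell counts and 39.4%, 31.1% and 36.7% of the blastocyst counts. Their stage means were 24.7% and 35.7%, but 2-cell run 1 lay inside the blastocyst range, so the stages overlapped. SINE elements were close in both stages, at 18.7% and 18.4% in the 2-cell runs against 15.2%, 18.9% and 16.1% in those of the blastocyst. DNA transposons took 3.24% and 2.06% of the 2-cell counts against 3.46%, 1.15% and 2.65%, and overlapped too.

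**Figure D1:**
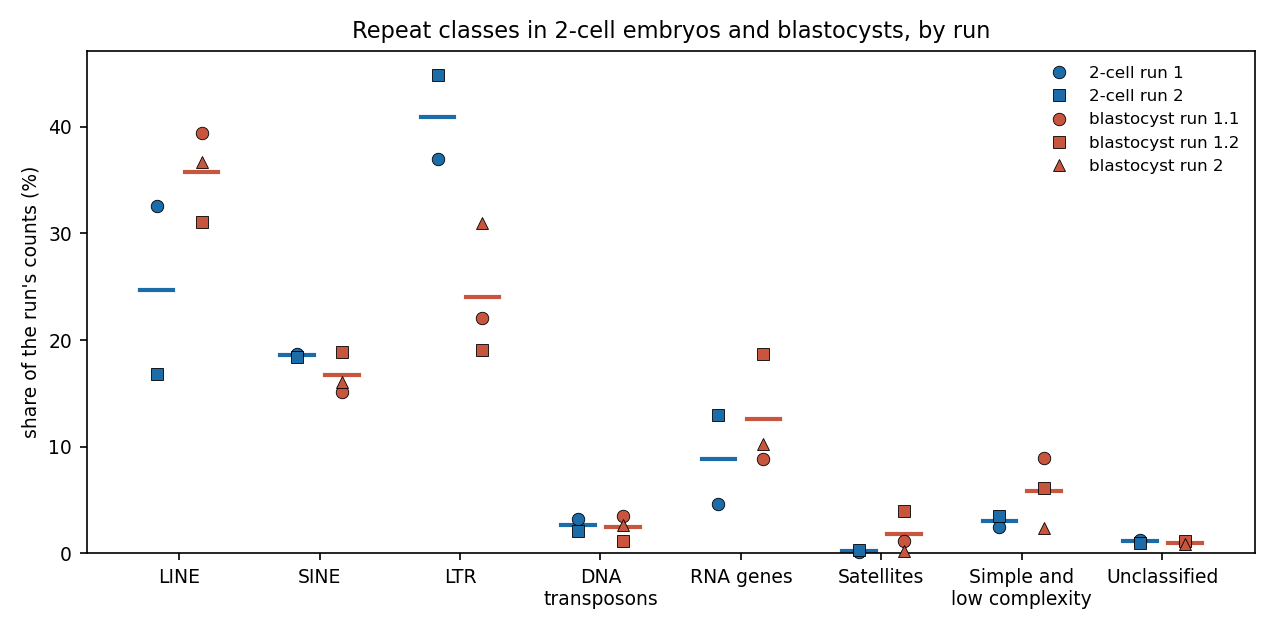
Share of counts (%, linear axis) of each repeat class in each of the 5 runs, with 1 marker per run, colours by stage and horizontal bars for the stage means. For LTR elements all 3 blastocyst runs (19.05% to 31.0%) lie under both 2-cell runs (37.0% and 44.9%), while for LINE elements the lower 2-cell run lies apart and the upper one lies among the blastocyst runs.

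Within transposon counts alone the separation of both classes was complete, though under 2-fold. LINE elements took 35.6% and 20.5% of the transposon counts in the 2-cell runs, against 49.2%, 44.3% and 42.5% in the blastocyst runs, a ratio of stage means of 1.62. LTR elements took 40.4% and 54.6% against 27.6%, 27.1% and 35.9%, a ratio of 0.635. The SINE means were 21.4% and 21.5% of transposon counts.

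By the call rule, 5 of 47 families were higher in the blastocyst, which is 10.6% of all families, and 1 of 47 was lower, or 2.13%. Runs that did not overlap, whatever the fold, occurred in 5 families with every blastocyst run above (10.6%) and in 5 with every blastocyst run below (10.6%). With only 2 and 3 runs, such an order can also arise between stages that do not differ. Among the 34 transposon families as a share of transposon counts, 3 were called higher (8.82%) and none was called lower (0%). There, 4 families (11.8%) had every blastocyst run above and 2 (5.88%) had every blastocyst run below. The families called were small ones, and none of the large transposon families was among them. The median log2 ratio of blastocyst to 2-cell share was -0.01 over the 34 families with at least 100 counts.

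The spread between runs of a stage was of the same order as the stage difference for most families. Among the 34 families with at least 100 counts, 17 varied at least 2-fold between the 2-cell runs and 23 varied at least 2-fold among the blastocyst runs. The median spread, highest run over lowest, was 2.01 in the 2-cell embryo and 2.74 in the blastocyst, while the median fold between stage means was 1.48. In 4 families, B2, ERVK, MaLR and scRNA, the stage fold was larger than the spread in both stages. The family named Genie? could not be among them, since its 0 counts in blastocyst run 1.2 leave no finite spread. The 2-cell runs also differed from each other more than either did from blastocyst run 2. Correlations of log2 shares used the 33 of these families with counts in every run. The Pearson correlation was 0.915 between the 2-cell runs, 0.973 between 2-cell run 1 and blastocyst run 2, and 0.961 between 2-cell run 2 and blastocyst run 2. These correlations are across families, which are not independent replicates, and are given as a description.

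**Figure D2:**
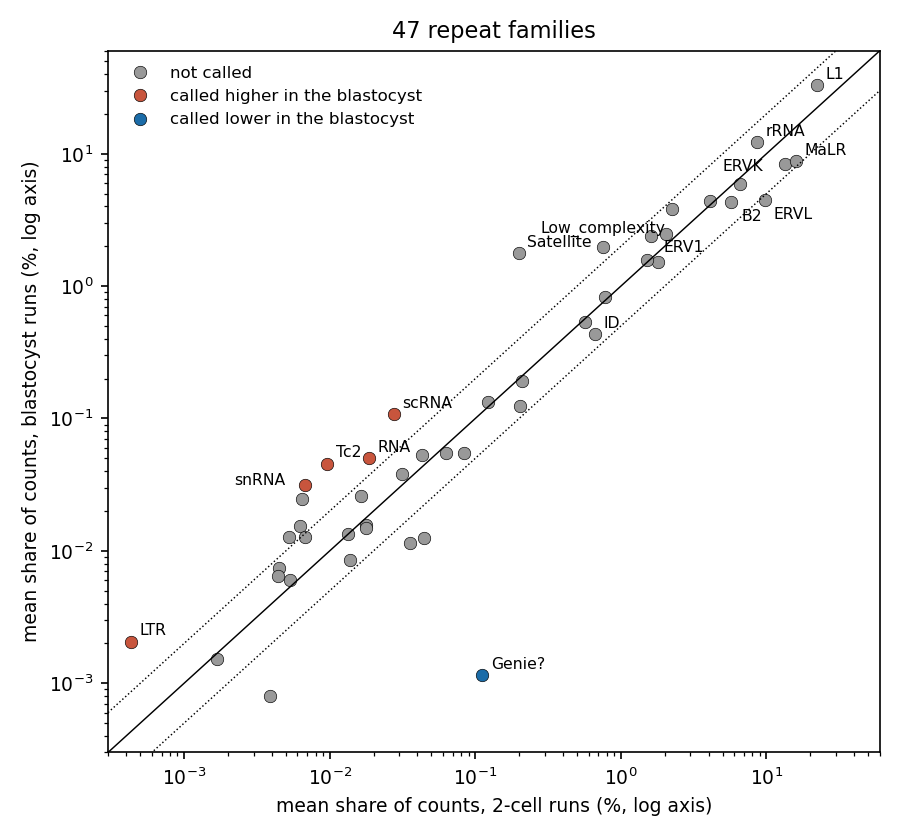
Mean share of counts (%) of the 47 repeat families in the 2-cell runs (horizontal log axis) and in the blastocyst runs (vertical log axis), with the line of equal shares solid and 2-fold lines dotted. Among families above 1% of counts in both stages, MaLR, ERVK and B2 lie under the line with no overlap of runs, while Genie? lies far under it at 0.112% and 0.00116%.

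Among LTR families, the runs of MaLR and ERVK did not overlap between the stages. Every blastocyst run lay below in 5 of 47 families (10.6%) and above in as many, so this order is a description only. MaLR took 15.6% and 16.5% of the counts in 2-cell runs 1 and 2. In blastocyst runs 1.1, 1.2 and 2 it took 10.2%, 6.71% and 9.45%. Every blastocyst run lay below both 2-cell runs, and the stage mean went from 16.1% to 8.78%, a ratio of 0.547. ERVK took 13.43% and 13.48% in the 2-cell runs, which were nearly equal, against 7.05%, 7.29% and 10.6% in the blastocyst runs. Its stage mean went from 13.5% to 8.33%, a ratio of 0.619, again with all blastocyst runs lower. Neither family reached 2-fold, so neither was called. As a share of transposon counts the order of runs was the same, with ratios of 0.596 for MaLR and 0.676 for ERVK. The MaLR ratio reached the rule, at 0.499, only when the runs were scaled by median-of-ratios size factors.

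ERVL, the family of MERVL, had a lower stage mean in the blastocyst, but its runs overlapped. Its share was 5.96% and 13.6% in the 2-cell runs, against 2.79%, 1.63% and 9.02% in the blastocyst runs. The 2-cell runs thus differed 2.28-fold from each other and the blastocyst runs 5.53-fold, against a 2.18-fold difference of the stage means of 9.78% and 4.48%. Blastocyst run 2 lay above 2-cell run 1. Without blastocyst run 2 the ratio of stage means was 0.226, without 2-cell run 1 it was 0.330, and both would be called lower. Without 2-cell run 2 it was 0.753. Subfamilies are not separated in the counts, so MERVL itself was not measured here.

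ERV1, another family of endogenous retroviruses, went the other way from the large LTR families by stage mean. Its share was 1.95% and 1.29% in the 2-cell runs, against 2.06%, 3.37% and 1.80% in the blastocyst runs, with overlap. Within LTR counts it took 5.27% and 2.87% against 9.33%, 17.7% and 5.82%, so that every blastocyst run lay above both 2-cell runs and the stage mean was 2.69-fold higher. MaLR made up 39.5% of the LTR counts in the 2-cell embryo and 37.2% in the blastocyst by stage mean, and ERVK 33.2% and 34.8%. ERVL went from 23.2% to 16.8% of LTR counts with overlapping runs. The inner make-up of the LTR counts thus differed little for MaLR and ERVK while the class as a whole was smaller.

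L1 was the largest family of both stages by mean. It took 30.1% and 14.7% of the counts in the 2-cell runs, against 37.3%, 29.4% and 32.3% in blastocyst runs 1.1, 1.2 and 2. The 2-cell runs differed 2.05-fold from each other, and 2-cell run 1 lay above blastocyst run 1.2. The ratio of stage means was 1.47, and was 2.24 without 2-cell run 1 and 1.096 without 2-cell run 2. As a share of transposon counts L1 took 32.9% and 17.9% against 46.6%, 41.9% and 37.4%. On that scale all blastocyst runs lay above both 2-cell runs and the ratio was 1.65. L2, an ancient LINE family, took 2.12% and 1.96% against 1.77%, 1.62% and 4.09%, with overlap.

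Ratios of families within a run do not depend on the run's total or its rRNA. These pairs were chosen after the values were seen. LINE counts over LTR counts gave 0.881 and 0.375 in the 2-cell runs, against 1.78, 1.63 and 1.18 in the blastocyst runs. LTR counts exceeded LINE counts in both 2-cell runs, and LINE counts exceeded LTR counts in all 3 blastocyst runs. The mean ratio was 2.44-fold higher in the blastocyst and met the call rule. L1 over MaLR was 1.93 and 0.891 in the 2-cell runs, against 3.67, 4.38 and 3.42 in the blastocyst runs, a 2.71-fold difference. L1 over ERVK was 2.24 and 1.09 against 5.29, 4.03 and 3.03, a 2.47-fold difference. L1 over ERVL was 5.05 and 1.08 against 13.4, 18.03 and 3.58, with overlap. ERVL over MaLR, which compares both LTR families of early stages, was 0.382 and 0.824 against 0.275, 0.243 and 0.954, and overlapped too. The 2-fold size rested on 2-cell run 2: without it the differences were 1.74-fold for LINE over LTR, 1.98-fold for L1 over MaLR and 1.84-fold for L1 over ERVK. The order of the remaining runs was unchanged.

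**Figure D3:**
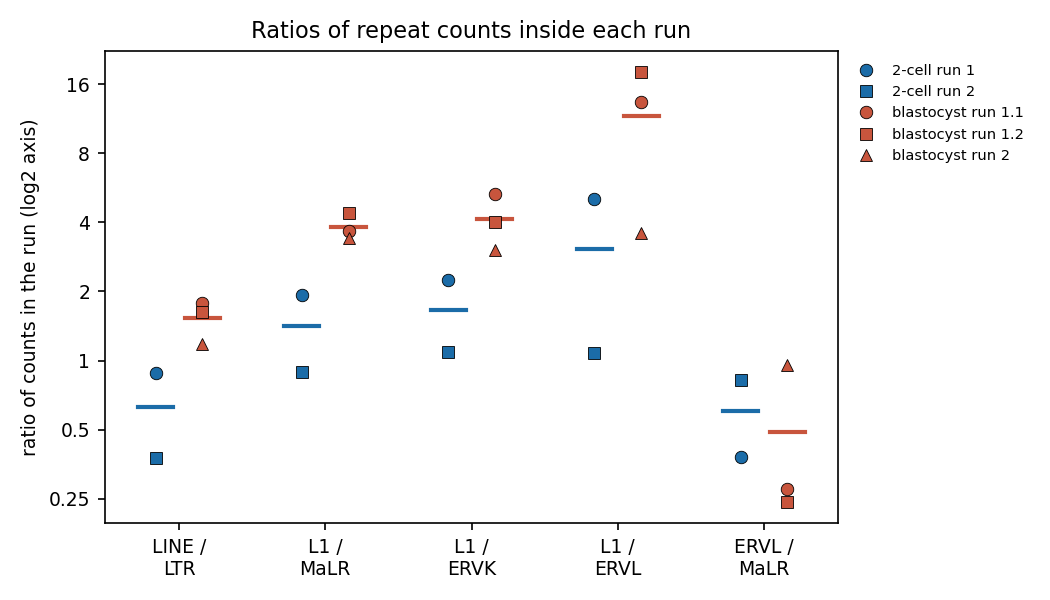
Ratios of counts between pairs of classes or families within each of the 5 runs, on a log axis, with 1 marker per run and horizontal bars for the stage means. For LINE over LTR, L1 over MaLR and L1 over ERVK all 3 blastocyst runs lie above both 2-cell runs, while L1 over ERVL and ERVL over MaLR overlap.

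Among SINE families, B2 took a lower share of all counts in every blastocyst run. Its share was 5.33% and 6.13% in the 2-cell runs, against 3.94%, 4.77% and 4.1998% in the blastocyst runs, a ratio of 0.751. As a share of transposon counts the runs overlapped, since blastocyst run 1.2 (6.80%) lay above 2-cell run 1 (5.82%), and the ratio was 0.832. Within SINE counts B2 took 28.5% and 33.3% against 26.0%, 25.3% and 26.2%, with no overlap. The B1 family, named Alu in the counts, took 3.64% and 4.5003% in the 2-cell runs, against 3.63%, 5.61% and 4.06% in the blastocyst runs. B1 over B2 within a run was 0.682 and 0.734 against 0.922, 1.17 and 0.966, so that every blastocyst run was higher and the mean was 1.44-fold higher. B4 took 7.19% and 5.92% against 5.28%, 7.38% and 5.17%. ID, a small SINE family, took 0.612% and 0.715% against 0.588%, 0.157% and 0.557%. All blastocyst runs of ID were lower by share of all counts, at a ratio of 0.654, and at 0.862 without blastocyst run 1.2. By share of transposon counts blastocyst run 1.1 (0.733%) lay above 2-cell run 1 (0.668%), so the runs overlapped. MIR, an ancient SINE family, took 1.88% and 1.13% against 1.70%, 0.967% and 2.05%, with overlap.

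The 5 families called higher had few counts. The scRNA family, copies of small cytoplasmic RNA genes, had 84 and 47 counts in the 2-cell runs, against 69, 42 and 43 in the blastocyst runs. As shares these were 0.0362% and 0.0191% against 0.166%, 0.114% and 0.0458%, a ratio of 3.92. Tc2, a family of DNA transposons, had 41 and 4 counts against 24, 22 and 18. Its ratio was 4.72, but its 2-cell shares differed 10.8-fold, and the ratio ran from 2.58 to 27.9 with runs left out. The family named RNA had 45 and 44 counts against 10, 39 and 19 and a ratio of 2.68, which dropped to 1.19 without blastocyst run 1.2. The snRNA family, copies of spliceosomal RNA genes, had 22 and 10 counts against 16, 10 and 27, with a ratio of 4.64. That ratio ran from 3.32 to 7.72 with runs left out and was 2.94 among runs that share a read-name prefix, where scRNA was at 2.20 and Tc2 at 2.23. The family named LTR, chosen for mention because the rule called it, had 5 counts in all, and no fold is given for it.

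The 1 family called lower is named Genie? in the counts, where the question mark is part of the name. It was put with the unclassified repeats here. It had 362 and 166 counts in the 2-cell runs and 1, 0 and 1 counts in blastocyst runs 1.1, 1.2 and 2. Every blastocyst run was at or under the 3 counts taken as the floor, and both 2-cell runs were far above it. With counts pooled over the runs of a stage, the 2-cell share was 95.3 times the blastocyst share, with an exact Poisson 95% interval of 26.3 to 789 that covers counting error only. With each run left out in turn, the ratio of 2-cell to blastocyst stage means ran from 58.4 to 210. How many loci these counts come from was not tested, since the read positions carry no family names.

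RNA genes and tandem repeats differed widely between runs. The rRNA share was 4.53% and 12.8% in the 2-cell runs, against 8.52%, 18.4% and 10.01% in the blastocyst runs, and the stages overlapped. Satellites, tandem repeats found at and around centromeres, took 0.0676% and 0.332% against 1.18%, 3.96% and 0.164%. Their stage means were 0.200% and 1.77%, but blastocyst run 2 lay inside the 2-cell range. Low_complexity sequence took 0.507% and 1.003% against 3.35%, 1.99% and 0.595%, and Simple_repeat took 1.99% and 2.49% against 5.55%, 4.10% and 1.79%. In these 3 families blastocyst runs 1.1 and 1.2 were the high ones and run 2 was not. Relics of tRNA genes took 0.0250% and 0.143% against 0.0458%, 0.0379% and 0.0819%. Their ratio of 0.657 changed direction with the 2-cell run used, at 0.386 without run 1 and 2.21 without run 2.

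Read starts were then followed along the genome. The read files held 236980 and 211961 placed reads in the 2-cell runs, against 40922, 33473 and 95702 in the blastocyst runs. The 2-cell runs together held 72.5% of these lines. Lines and family counts did not match in number. For 2-cell run 2 the 245473 counts exceeded the lines, and for 2-cell run 1 the 232146 counts were fewer. Family shares and cluster shares thus have different totals, and the reason is not stated. Starts within 20 bp of the next on one strand were joined into clusters, and positions are in mm9. The read files name no repeat and no gene, and an annotation of mm9 was not used here, so clusters are given by position only. Strands are those of the read placement.

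The runs differed in the deposited placement score as much within a stage as between stages. Its median was 24 and 43 in the 2-cell runs, against 16, 32 and 15 in the blastocyst runs. Lines with a score of at least 20 made up 65.1% and 90.9% of the 2-cell runs, but 4.41%, 88.8% and 7.55% of blastocyst runs 1.1, 1.2 and 2. The scale of the score is not stated.

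At equal depth, with each run thinned to 33473 reads, the 2-cell runs held 14431 and 9734 clusters. Blastocyst runs 1.1, 1.2 and 2 held 24377, 7841 and 14743. Blastocyst run 1.1 was the most spread out and run 1.2 the least of the 5 runs, so the stages overlapped. At full depth, 50% of the reads lay in the first 1043 and 282 clusters of the 2-cell runs, and in 8672, 53 and 438 clusters of the blastocyst runs. Clusters of a single read made up 59.03% and 57.7% of the 2-cell clusters and 88.8%, 73.8% and 80.6% of the blastocyst clusters, though the depths differ for these full-depth values.

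Most clusters were read in 1 run only, within a stage as between stages. In the thinned runs, 22679 clusters had a read in at least 1 of the 2-cell runs and 45155 in at least 1 of the blastocyst runs. The 2084 clusters read in both were 9.19% of the 2-cell clusters and 4.62% of the blastocyst clusters. Pairs of runs shared 1486 clusters within the 2-cell embryo, 389 to 1169 within the blastocyst and 268 to 1400 between the stages. The 2084 clusters held 41.2% of the 2-cell reads and 30.9% of the blastocyst reads. Of the 598 clusters with at least 10 reads in the thinned 2-cell runs, 43.0% had a blastocyst read, and of the 628 such blastocyst clusters 40.6% had a 2-cell read.

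The overlap of a pair of runs, obtained by adding up, cluster by cluster, the lower of the 2 read shares, was 26.1% for the 2-cell runs. Among the blastocyst runs it was 15.9% for runs 1.1 and 1.2, 6.37% for 1.1 and 2, and 10.2% for 1.2 and 2. Between a 2-cell and a blastocyst run it ran from 5.19% to 14.2% with a mean of 9.97%, beside a mean of 10.8% among the blastocyst runs. The 2-cell runs thus shared more with each other than with any blastocyst run, while the blastocyst runs shared about as much with the 2-cell runs as among themselves. Blastocyst run 2 overlapped most with 2-cell run 1, at 14.2%.

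**Figure D4:**
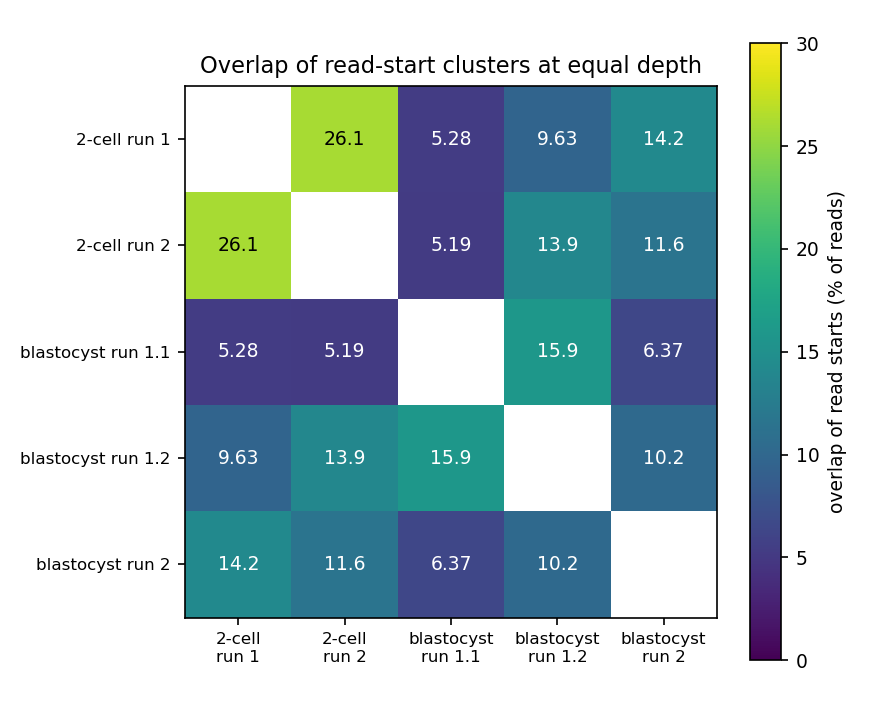
Overlap (% of reads) of the read-start clusters at equal depth for each pair of the 5 runs, as a grid with 1 cell per pair, the value printed in it and brighter colours for higher overlap. The 2-cell pair stands highest at 26.1%, and the 3 pairs of blastocyst runs (6.37% to 15.9%) lie among the pairs between stages (5.19% to 14.2%) but for the highest of them.

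Of 926 clusters with at least 50 reads over the 5 runs, 392 (42.3%) were called lower in the blastocyst and 16 (1.73%) were called higher. A higher call needs reads in all 3 blastocyst runs, which overlapped little, and a lower call needs reads in both 2-cell runs, which overlapped more and were deeper. The minimum of 50 reads was also more easily met by 2-cell reads, since the 2-cell runs held 72.5% of the lines. In the thinned runs, with at least 10 reads as the minimum, 281 of 1223 clusters (23.0%) were lower and 24 (1.96%) were higher. Lower calls outnumbered higher ones in both. The thinned count differs in depth and in the read minimum, and at full depth a minimum of 20 reads alone gave 918 lower calls, or 33.6% of the clusters tested. With only lines of a score of at least 10 kept, 381 clusters were lower and 7 higher, and with a score of at least 20, 312 were lower and 5 higher. A score of at least 20 left 4.41% of the lines of blastocyst run 1.1 and 7.55% of run 2. Higher calls, which need reads in all 3 blastocyst runs, were thus limited by that filter itself. The number of clusters tested also differs between these settings.

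The 392 lower clusters had a median width of 6 bp and lay on 20 chromosomes, with 196 on each strand. The 518 clusters called in neither direction were alike in this, with a median width of 5 bp, 21 chromosomes, and 279 on the plus and 239 on the minus strand. The 392 lower clusters took 26.6% and 30.7% of the 2-cell reads, and 0.628%, 1.84% and 1.41% of the blastocyst reads. In 219 of these 392 no blastocyst run had a read, and in 129 only 1 blastocyst run had one. The ratio was at least 10-fold in 347. Such values were also common among the 518 clusters called in neither direction. There, 158 had no blastocyst read, 148 were read in only 1 blastocyst run, and 299 had a ratio of at least 10-fold in either direction. The 16 higher clusters had a median width of 25 bp, lay on 9 chromosomes and took 0.834% and 1.37% of the 2-cell reads against 4.35%, 11.3% and 2.39% of the blastocyst reads.

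The largest 2-cell cluster by mean share lay on the plus strand at chr8:106314888-106314898. A cluster on chromosome 11 led run 1, and one on chromosome 17 led run 2. The chromosome 8 cluster held 7296 and 9820 reads in the 2-cell runs, or 3.08% and 4.63%. In blastocyst runs 1.1, 1.2 and 2 it held 0, 0 and 6 reads. At chr11:86272577-86272587, plus strand, the shares were 3.996% and 2.06% against 0.310%, 1.06% and 0.235%. This cluster was still read in every blastocyst run, at a 5.64-fold lower mean. The cluster at chrX:6915854-6915863, plus strand, took 0.311% and 2.99% against 0, 2 and 18 blastocyst reads, so that the 2-cell runs differed widely from each other. At chr5:111756039-111756048, plus strand, the 2-cell shares were 0.606% and 2.57%, against 0, 0 and 7 reads. At chr15:91709982-91710000, minus strand, the 2-cell runs were alike, at 0.917% and 1.04%, and the blastocyst runs held 0.0269%, 0.0478% and 0.0355%, a 26.6-fold lower mean.

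Of the 219 called clusters with no blastocyst read, 3 are given, the first by mean share of the 2-cell runs. All 219 met the minimum of 50 reads through 2-cell reads alone, so their folds are a description only. One lay at chr3:124109889-124109892, minus strand, with 457 and 2655 reads in the 2-cell runs. A second was at chr13:117807103-117807107, plus strand, with 1180 and 1962 reads, and a further one at chr2:27487631-27487634, minus strand, with 612 and 1948 reads. Against the floor of 3 reads over all blastocyst lines, the pooled 2-cell share was at least 393-fold, 397-fold and 323-fold higher in this order. The 0 counts in the blastocyst allow a share of up to 0.00176% of its pooled lines.

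The blastocyst clusters of the highest mean share were mostly large in 1 run. The cluster at chr5:88140004-88140006, plus strand, took 8.39% of blastocyst run 2, but 0.00244% and 0.00597% of runs 1.1 and 1.2, and 0.257% and 0.0109% of the 2-cell runs. At chr13:94350961-94350973, plus strand, blastocyst run 2 held 4301 reads, runs 1.1 and 1.2 held 3 and 5, and the 2-cell runs held 149 and 12. The cluster at chr12:100066739-100066741, minus strand, held 1321 reads in blastocyst run 1.2, 21 in run 1.1 and 0 in run 2 and in both 2-cell runs. None of these 3 met the call rule, since the blastocyst runs did not all lie above both 2-cell runs. On chromosome 12, blastocyst run 2 was level with the 2-cell runs at 0 reads. Clusters above 0.1% of a run with a share more than 10-fold smaller in each of the other 4 runs numbered 4, 23 and 27 in blastocyst runs 1.1, 1.2 and 2, and 7 and 21 in the 2-cell runs.

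The densest 10 kb of the genome in these reads, chr17:39980000-39989999, held 2.19% and 6.80% of the 2-cell reads and 4.59%, 14.5% and 4.43% of the blastocyst reads. The order of the runs by this share was close to that of their rRNA shares, with blastocyst run 1.2 highest and 2-cell run 1 lowest in both. Inside it, the minus-strand cluster at chr17:39983328-39983633 took 0.739% and 1.201% against 3.25%, 9.64% and 1.32%. This was the largest cluster called higher in the blastocyst, 4.88-fold by stage mean, though run 2 lay just above the 2-cell runs. Its neighbour at chr17:39984051-39985043, also on the minus strand, took 1.36% and 5.36% against 0.965%, 4.57% and 2.88%, with overlap. A smaller cluster between them, chr17:39983827-39984020, was called higher at 3.35-fold, with 0.0384% and 0.0892% against 0.337%, 0.131% and 0.172%. Away from this region, the cluster at chr2:22600386-22600422, plus strand, took 0.00633% and 0.0255% against 0.0513%, 0.209% and 0.288%, an 11.5-fold higher mean. At chr18:80677173-80677185, plus strand, the shares were 0.00760% and 0.00377% against 0.0977%, 0.0627% and 0.261%, a 24.7-fold higher mean, and both stages were well apart. The cluster at chr10:104675444-104675448, minus strand, met the rule on 186 reads in blastocyst run 1.2, with 9 and 1 reads in runs 1.1 and 2 against 2 and 0 in the 2-cell runs.

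**Figure D5:**
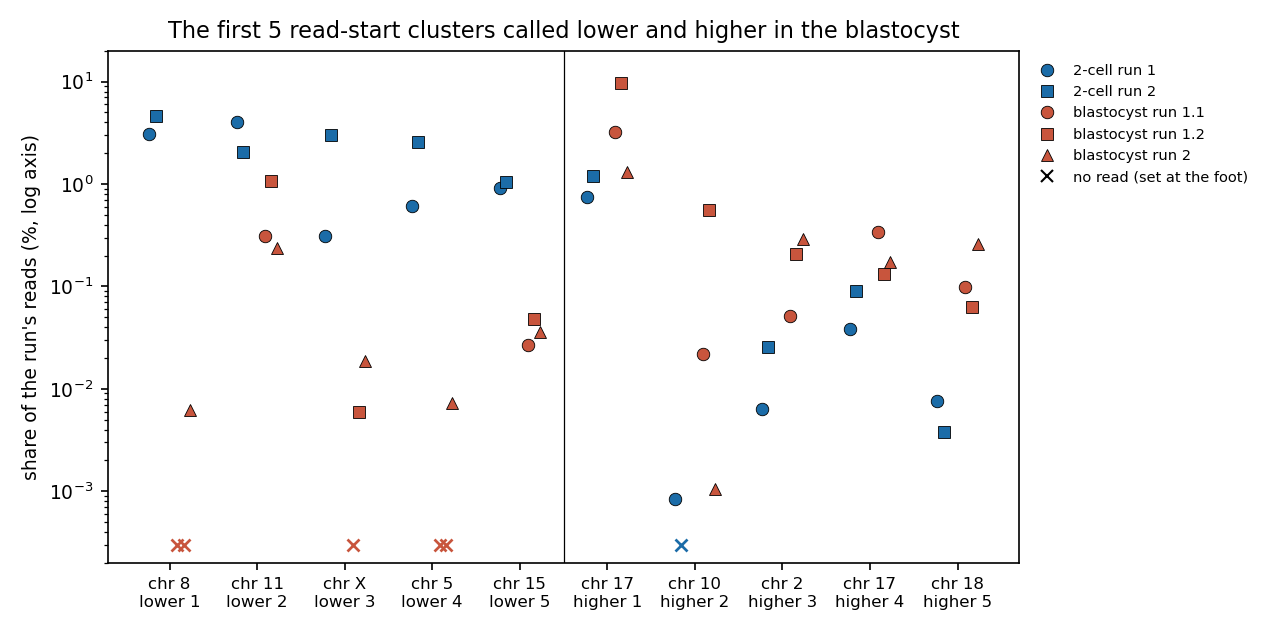
Share of a run's reads (%, log axis, crosses at the foot for no read) of the first 5 read-start clusters called lower (left) and the first 5 called higher (right) in the blastocyst, with 1 marker per run. On the left the 2-cell runs lie at 0.311% to 4.63% with most blastocyst runs far below or without a read, and on the right all 3 blastocyst runs lie above both 2-cell runs, by little for the first cluster of chromosome 17 and for blastocyst run 2 on chromosome 10.

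The plus strand held 54.8% and 52.1% of the 2-cell reads and 46.8%, 37.4% and 59.8% of the blastocyst reads. When each cluster was counted once, the plus strand held between 49.4% and 50.3% in all 5 runs. Of 22 chromosomes, only chromosome 8 was called lower in the blastocyst (4.55%). It held 6.96% and 8.68% of the 2-cell reads and 4.33%, 2.81% and 3.52% of the blastocyst reads. Without the leading clusters the ratio of its stage means was 0.887 and the runs overlapped. With clusters counted once the chromosome held 4.82% in both stages by mean. The X chromosome took 4.86% and 6.36% against 7.54%, 4.06% and 6.39%, with overlap.

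The read names begin with a prefix whose meaning is not stated. D118D2, without its first letter in some lines, stood in the names of 2-cell run 1 and of blastocyst runs 1.2 and 2, while 2-cell run 2 and blastocyst run 1.1 each carried another prefix. Within the 3 runs that shared it, the ratio of stage means was 0.676 for LTR elements as a class, 0.518 for MaLR and 0.668 for ERVK, close to the values over all runs. For ERVL it was 0.894, against 0.458 over all runs. It was 1.04 for LINE elements and 1.02 for L1. There LINE over LTR was 1.60-fold and L1 over ERVK 1.58-fold higher in the blastocyst, under the 2-fold rule, and L1 over MaLR was 2.02-fold higher. The lower MaLR and ERVK shares were thus found within the shared prefix as well, while the LINE and L1 shares were nearly equal between the stages. For ERVL, blastocyst runs 1.2 and 2 lay on both sides of 2-cell run 1, at 1.63% and 9.02% against 5.96%. Each side then holds only 1 or 2 runs.

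Runs 1.1 and 1.2 of the blastocyst overlapped most among the blastocyst runs. With both averaged as 1 value beside run 2, the ratio was 0.630 for LTR elements, 0.557 for MaLR, 0.662 for ERVK and 0.574 for ERVL, and 2.30 for LINE over LTR. Of 47 families, 7 were then called higher and 1 lower, by a rule that is easier to meet with fewer values.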

How the data were processed

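Read counts for repeat families were deposited by the authors, and per the file headers each column of the table is 1 run. Reads placed in repeats were deposited by the authors as 1 line of position, strand and score per placement, with no scale stated for the score. Other columns of these files, such as read names, are as the authors deposited them. Reads were placed on mm9, and CASAVA is named as a tool, per the submitters' processing notes. The aligner settings, the repeat annotation, the treatment of reads with several placements, and whether a read could be counted in more than 1 family are not stated in the labels or headers. Family names hold no subfamilies.

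Each count was divided by the total of its run over 47 families, or over 34 transposon families, and families were assigned to classes by their names. Totals ran from 36922 to 245473 counts, so that 3 counts, taken as the floor, are 0.00813% of the shallowest run and 0.00122% of the deepest. Exact Poisson intervals cover counting error only, as no molecular identifiers mark which amplified reads came from 1 molecule. Read starts are the 5′-most bases, 1-based. Clusters needed at least 50 reads for a call, and runs were thinned with a fixed seed to 33473 lines for numbers and overlaps. Computations used Python 3.11.15, numpy 2.4.6, pandas 2.3.3 and scipy 1.17.1. The call rule was checked on simulated runs with less spread than the real ones and with changes larger than 2-fold. That check does not give the rate of false or missed calls at the spread of these data.

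Members, classes and lists were chosen with earlier results of these data known. Families named are up to 10 per direction by ratio among those called with at least 100 counts, plus the main families of each class. The snRNA family has fewer counts and is named as a main family. Clusters named are the first 5 of each stage by mean share and the first 5 per direction among called clusters, in part, and clusters without a blastocyst read, chosen after their values were seen. Alternatives were other denominators, size factors, pooled counts, each run left out, other folds, joins, minimums and score filters. The comparison within a shared read-name prefix, the score minimum of 10, the thinned calls and the averaging of blastocyst runs 1.1 and 1.2 were added after seeing the data.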

Additional observations from a re-analysis of the deposited data

How the results depend on the processing

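Of the 27 families followed, only snRNA, scRNA, Tc2, RNA and Genie? were called on all runs, and no class was. None of these families changed direction under the alternatives run, nor did the pairs LINE over LTR, L1 over MaLR and L1 over ERVK. Families and classes not called could cross a ratio of 1 with runs left out. Among these were CR1 (0.623 to 1.73), L2 (0.830 to 1.44), MIR (0.837 to 1.39) and DNA transposons as a class (0.719 to 1.18). The tRNA family, not called on all runs, was called in opposite directions with 1 or the other 2-cell run left out. With each run left out in turn, the ratio of blastocyst to 2-cell share ran from 0.502 to 0.650 for LTR elements, 1.096 to 2.12 for LINE, 0.967 to 2.71 for RNA genes, 3.36 to 26.1 for satellites, and 1.42 to 2.50 for simple and low complexity repeats. LINE was called without 2-cell run 1, RNA genes without 2-cell run 2, satellites without 2-cell run 2 or blastocyst run 2, and simple repeats without blastocyst run 2. Within the runs with D118D2 in their read names RNA genes were at 3.12 and satellites at 30.5, both called.

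Of the 47 families, left-out runs gave 6 to 12 called higher and 1 to 5 lower, against 5 and 1 with all runs. Fewer runs lie apart without overlap more easily, so these numbers can rise whichever run is left out. The same holds for the shared prefix. Transposon counts gave 3 of 34 families higher and 0 lower, and a minimum of 100 counts gave 3 of 34 higher. Of all 47 families, size factors gave 3 lower, the shared prefix 10 higher and 6 lower, and a 1.5-fold rule 4 lower. LINE over LTR ran from 1.74 to 4.09 with runs left out and was 1.60 within the shared prefix, and both the value without 2-cell run 2 and that within the prefix were under the rule.

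Clusters called higher numbered 20 to 68 with runs left out, against 303 to 472 called lower. With all runs these numbers were 16 and 392 of 926. The number of clusters tested changes with the setting, and fewer runs lie apart more easily. Clusters called higher numbered 5 with a score of at least 20, 7 with at least 10 and 29 within the shared prefix. There were 35 with blastocyst runs 1.1 and 1.2 averaged, 36 with a minimum of 20 reads and 4 with 200 reads. The same minimums gave 918 and 92 lower. Without thinning, runs held 42744.5 (2-cell) and 24077.7 (blastocyst) clusters on average, and 10.03% of blastocyst clusters had a 2-cell read. With a score of at least 20, which leaves few lines in blastocyst runs 1.1 and 2, each run was thinned further, and these means were 1094 and 836, with 5.30% of 2-cell clusters read in the blastocyst. With runs left out, this share ran from 3.80% to 12.3%, and the share of blastocyst clusters read in the 2-cell embryo from 1.88% to 8.62%.

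No paired analysis was possible because each stage is 1 sample and no test was made. The column names use 1 and 2 in both stages, but nothing says that a number marks a shared batch. Depth limits the blastocyst most: 1 read in blastocyst run 1.2 weighs as much as several in a 2-cell run, so clusters absent there are not shown to be silent.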
